A study of Mus musculus with 24 samples.

Results

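The genes of the kinetochore, the spindle checkpoint and the mitotic kinases were read as a set of 50, out of 23420 genes, in every library of a study of mouse splenic B cells. The 50 were taken from a list of genes by role, drawn up with earlier results of these data known. Kinesin motor genes were not on it, apart from Cenpe, the gene of a kinetochore motor. All 50 were present in the files, all passed the filter on low values and none was at the lower limit of the values in any library.

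RNA of B cells sorted from the spleens of BALB/c mice was sequenced in 24 libraries, 3 in each of 8 groups. Germinal center (GC) B cells, which divide rapidly and mutate their antibody genes during an immune response, were taken as early GC, peak GC and late GC cells. The other groups were in vivo activated B cells, B cells activated in vitro for 4 h, 12 h or 24 h, and naive B cells. The labels give BALB/c and spleen for every group and no genetic change. They name no stimulus, immunogen, day, sex, animal or culture, so the p-values measure the spread between these libraries, which may be technical. The values are log2 on a scale like CPM (counts scaled to a common library total), and each difference is the log2 difference between group means with its standard error (SE, n = 3 libraries per group). A difference of 1 is a doubling. A gene is called higher or lower at an adjusted p under 0.05 in limma's moderated test with Benjamini-Hochberg adjustment over 11885 genes.

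The labels were first set beside marker genes. Summed over 4 GC B-cell markers (S1pr2, Bcl6, Fas and Gcsam), the GC groups had 770.4 to 992.3 CPM, against 16.6 to 20.5 CPM in in vivo activated cells, 17.7 to 82.8 CPM in the in vitro groups and 120.5 to 125.6 CPM in naive cells. The 5 pan-B-cell markers summed to 2429 CPM or more in every library. Markers of other cells were also present in the GC groups: 5 erythroid genes summed to 170.1 to 1396 CPM in GC libraries, against 13.5 to 19.6 CPM in in vivo activated and 89.4 to 99.9 CPM in naive libraries, with Hba-a1 at the lower limit throughout. Of all groups, late GC cells had the highest median sums, with library values of 731.4 to 1396 CPM erythroid, 455.3 to 2042 CPM macrophage and monocyte, and 65.2 to 914.4 CPM neutrophil markers. Ddx3y, Eif2s3y and Kdm5d, genes of the Y chromosome, were at the lower limit in the GC and in vivo activated groups, with all 4 Y-linked genes read summing to 80.3 to 130.0 CPM in naive and in vitro activated libraries. Comparisons of GC or in vivo activated cells with naive or in vitro activated cells therefore also compare groups split by Y-linked RNA, and the state of the cells and this split cannot be told apart.

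A chromosome is pulled to a spindle pole through its kinetochore, a protein complex built on the centromere. The inner kinetochore sits on nucleosomes that carry the histone variant CENP-A, and the outer kinetochore, with the NDC80 complex at its core, binds microtubules. Unattached kinetochores activate the spindle checkpoint, which holds back the anaphase-promoting complex, the ubiquitin ligase that marks securin and cyclin B for destruction so that sister chromatids separate. The kinases CDK1, PLK1 and the Aurora kinases drive and order these steps. Many genes of this machinery are transcribed in G2 and M phase, and their promoters often hold a cell cycle homology region (CHR) and CCAAT boxes, which the DREAM and MuvB complexes and NF-Y are known to bind.

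Promoter windows of RefSeq on GRCm38.p6, which run over 300 bases (250 before to 50 after the annotated start), were found for 44 of the 50 genes. The CHR was searched in its usual form TTTGAA and in the variant form that reads TTCGAA. The CCAAT box was searched by its 5 letters CCAAT. Both strands were searched, and a match of one motif may overlap a match of the other. A CHR match was present in 29 of 44 (65.9%), against 21.7% of 27025 genes with a window. A CCAAT match was present in 33 of 44 (75.0%), against 41.1%, and both were present in 27 of 44 (61.4%), against 8.61%. Among the genes tested for expression that had a window, 8869 in all, the shares were 16.4% for the CHR, 43.4% for the CCAAT box and 6.79% for both. For 8 of the 44 genes (Aurka, Cenpm, Cenpp, Cenpt, Ect2, Ncapd2, Pttg1 and Sgol1) the nearest window belonged to a start that lay 219 to 3078 bases inside the outermost RefSeq start of the gene, so those windows are not at its outermost promoter. Among the 36 genes with a window within 100 bases of the outermost start, 66.7% had a CHR match, 77.8% a CCAAT match and 61.1% both, against 20.3%, 38.7% and 8.07% of 22803 genes with such a window. The 150 bases up to the base before the start are shown for 5 genes with matches near the start, which were chosen after their values were seen as examples of large differences between the groups. Capitals mark CHR and CCAAT matches on either strand, so that a capital ATTGG is a CCAAT box read from the other strand, and a capital TTCAAA likewise a CHR. Cdk1 encodes the main mitotic kinase, Top2a a topoisomerase that untangles sister chromatids, Ube2c and Cdc20 an E2 enzyme and an activator of the anaphase-promoting complex, and Espl1 separase, which cuts cohesin.
Cdk1, chr10:69352913-69353062, minus strand: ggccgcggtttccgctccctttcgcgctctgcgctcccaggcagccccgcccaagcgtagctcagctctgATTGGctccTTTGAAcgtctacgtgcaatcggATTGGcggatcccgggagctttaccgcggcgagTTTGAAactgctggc
Top2a, chr11:99024190-99024339, minus strand: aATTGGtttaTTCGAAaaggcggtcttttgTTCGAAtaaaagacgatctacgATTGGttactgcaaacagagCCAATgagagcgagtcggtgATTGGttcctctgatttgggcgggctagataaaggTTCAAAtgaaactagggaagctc
Ube2c, chr2:164769779-164769928, plus strand: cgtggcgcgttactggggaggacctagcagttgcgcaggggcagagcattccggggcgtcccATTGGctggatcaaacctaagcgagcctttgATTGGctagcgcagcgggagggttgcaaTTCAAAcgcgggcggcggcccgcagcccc
Cdc20, chr4:118437344-118437493, minus strand: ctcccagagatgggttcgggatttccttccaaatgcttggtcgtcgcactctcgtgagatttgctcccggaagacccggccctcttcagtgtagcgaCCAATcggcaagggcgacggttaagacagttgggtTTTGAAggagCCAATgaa
Espl1, chr15:102296143-102296292, plus strand: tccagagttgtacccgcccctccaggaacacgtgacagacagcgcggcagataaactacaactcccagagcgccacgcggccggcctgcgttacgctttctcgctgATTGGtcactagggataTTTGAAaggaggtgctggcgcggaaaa

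**Figure D1:**
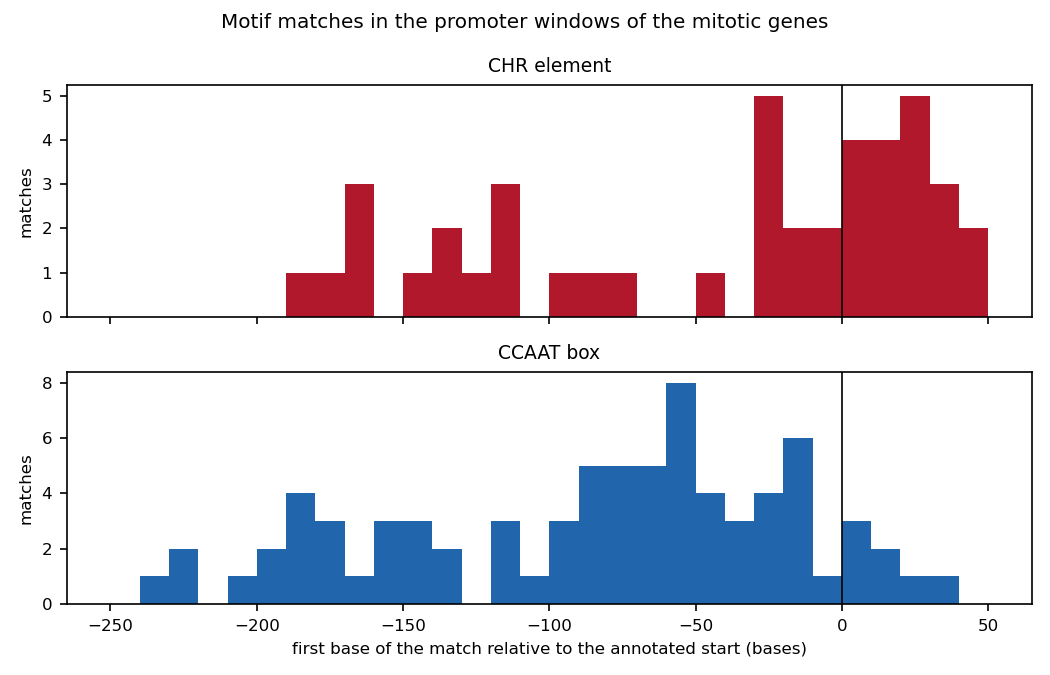
Number of CHR matches (upper panel) and CCAAT matches (lower panel) in the promoter windows of the 44 genes, by the position of the first base of the match relative to the annotated start, in bins of 10 bases. Of 43 CHR matches 31 lie between 100 bases before and 50 bases after the start, as do 51 of 77 CCAAT matches. Some of the 44 genes have several windows (50 windows in all), and a site in overlapping windows of a gene is counted in each.

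The 50 genes were highest in the GC and in vivo activated groups. The median log2 value over the 50 genes was 6.31 to 6.94 in the GC libraries and 6.80 to 6.82 in in vivo activated libraries, against 1.996 to 2.482 in naive libraries. In vitro the median was 1.56 to 1.76 at 4 h, 2.30 to 2.37 at 12 h and 5.62 to 5.82 at 24 h. Peak GC cells had the highest group mean for 21 genes, in vivo activated cells for 18, early GC cells for 5, late GC cells for 1 (Sgol2) and 24 h cells for 5 (Cenpi, Cenpk, Cenpm, Ncapg and Smc2). The lowest group mean was at 4 h for 30 genes, in naive cells for 14 and at 12 h for 6 (Cenpa, Cenpl, Ccnb2, Plk4, Birc5 and Pttg1). Gene levels in these files are not scaled for transcript length, so levels of different genes are not ranked against each other.

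**Figure D2:**
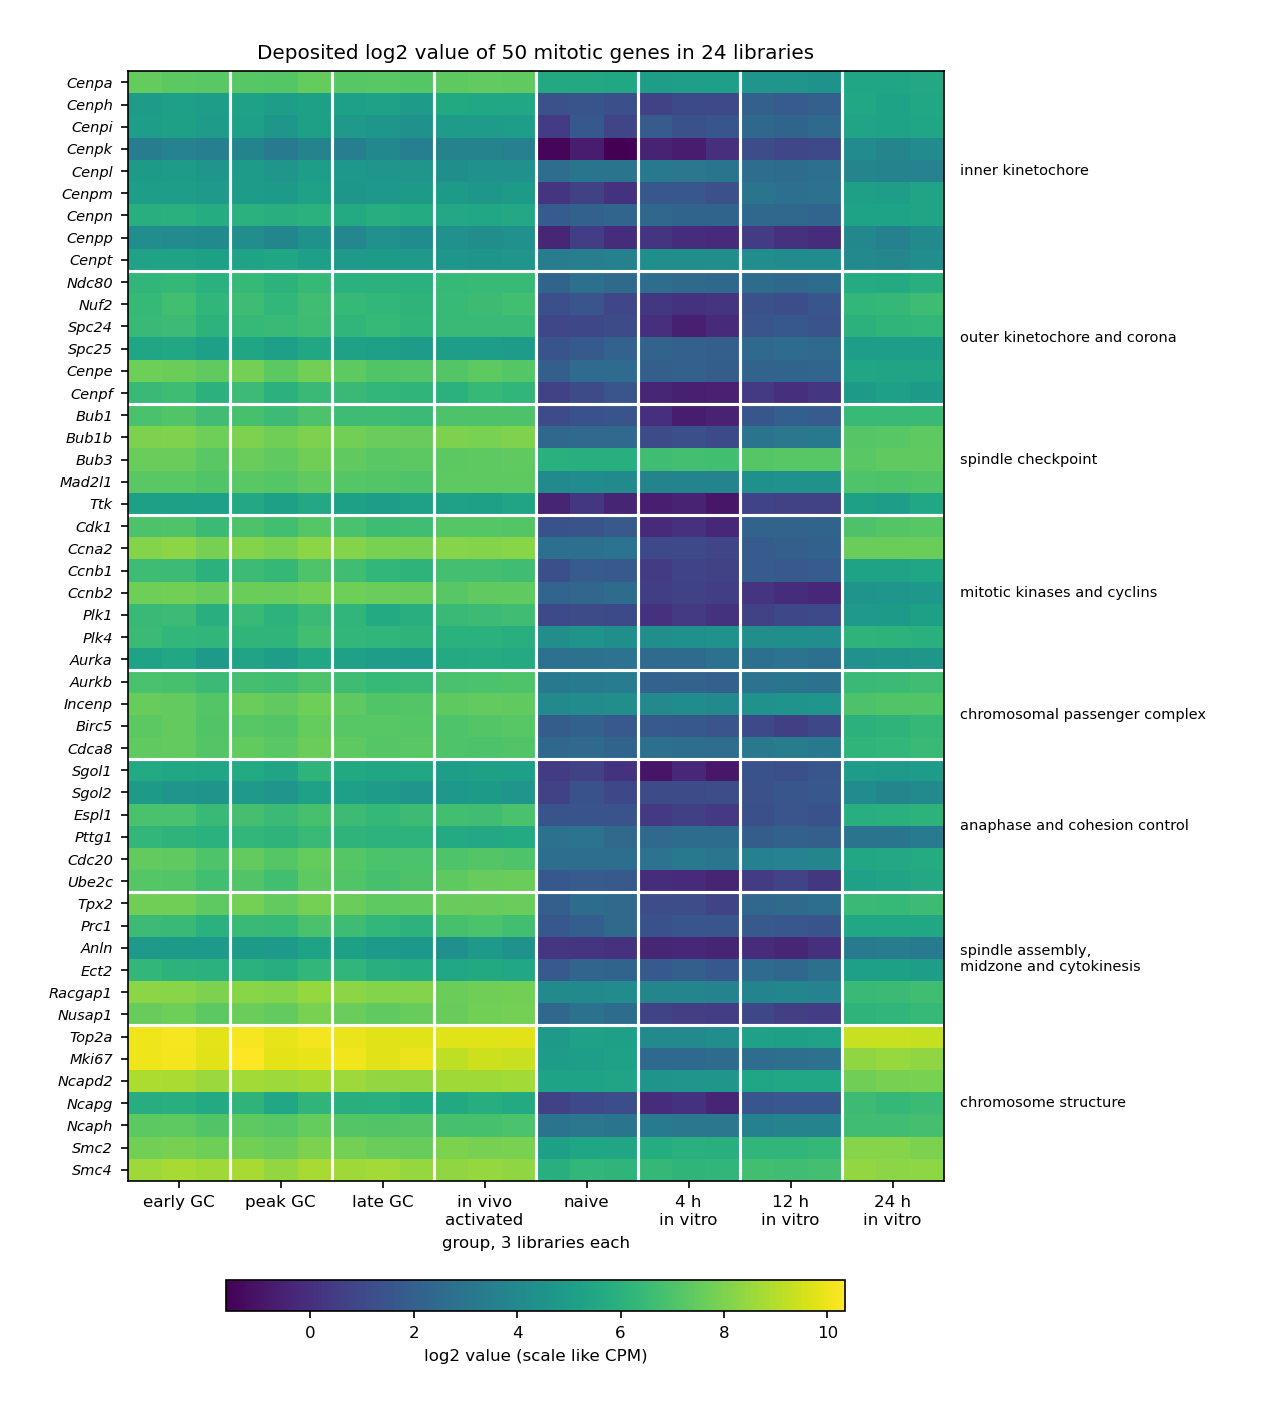
Log2 value (scale like CPM) of each of the 50 genes in each of the 24 libraries, with genes grouped by role and libraries by group. The GC, in vivo activated and 24 h libraries are high for nearly all genes, and the naive, 4 h and 12 h libraries are low.

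In peak GC B cells all 50 genes were higher than in naive B cells, where 40.5% of all genes tested were higher and 39.3% lower. The log2 differences ran between 1.66 and 5.63 with a median of 4.69, and the median over all genes tested was 0.01. All 50 genes were at least doubled, as were 17.1% of all genes tested, and for all 50 the 3 peak GC libraries lay above the 3 naive libraries, while 78.7% of all genes tested had groups that did not overlap. The largest adjusted p among the 50 was 4.76e-14. In bulk RNA, fewer cells with a transcript and less of it per cell cannot be told apart, so these values do not say which share of the cells was in mitosis.

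The spindle checkpoint genes had the highest median difference of the roles, 5.48 over 5 of 5 genes called, with single genes between 1.66 and 5.63. The order of the roles was not tested. Bub1, a checkpoint kinase, had 6.85, 6.59 and 6.98 in peak GC libraries, against 1.10, 1.40 and 1.46 in naive libraries, a difference of 5.49 ± 0.14 (adjusted p = 4.08e-20). Ttk, the kinase MPS1 that starts checkpoint signalling, showed the largest difference of the 50, 5.63 ± 0.16 (adjusted p = 1.28e-19). Mad2l1, the gene of MAD2, which inhibits CDC20, had 7.30, 7.17 and 7.45 in peak GC libraries, against 4.03, 4.18 and 4.03 in naive libraries, a difference of 3.22 ± 0.07. Bub3, the partner of BUB1 and BUBR1, moved least. It had 7.59, 7.43 and 7.75 in peak GC libraries, against 5.96, 5.94 and 5.90 in naive libraries, a difference of 1.66 ± 0.07 (adjusted p = 1.19e-15), the smallest of the 50.

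The kinases and cyclins followed closely, with a median of 5.29 over 7 of 7 genes higher in peak GC than in naive cells. Cdk1 had 7.01, 6.72 and 7.21 in peak GC libraries, against 1.39, 1.45 and 1.70 in naive libraries, a difference of 5.47 ± 0.13. Its partners Ccna2 and Ccnb1, genes of cyclins A2 and B1, differed by 5.29 ± 0.10 and 5.04 ± 0.17. Ccna2 had 8.11, 7.93 and 8.28 in peak GC libraries, against 2.73, 2.76 and 2.95 in naive libraries, and Ccnb1 had 6.59, 6.34 and 7.06 in peak GC libraries, against 1.31, 1.86 and 1.69 in naive libraries. Plk1, which acts at centrosomes, kinetochores and the midzone, had 6.51, 6.12 and 6.52 in peak GC libraries, against 1.04, 1.15 and 1.07 in naive libraries. The exception in size was Plk4, the kinase of centriole duplication, with 6.20, 6.21 and 6.71 in peak GC libraries, against 4.30, 4.55 and 4.34 in naive libraries, a difference of 1.98 ± 0.10 (adjusted p = 3.34e-14). Groups did not overlap for any of these genes.

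Inner and outer kinetochore genes were all higher, with different medians. The 6 outer kinetochore and corona genes had a median difference of 5.26 and the 9 inner kinetochore genes one of 3.91. Spc24 and Ndc80 encode subunits of the complex that grips microtubules. Spc24 had 6.39, 6.43 and 6.64 in peak GC libraries, against 0.89, 0.98 and 1.15 in naive libraries, a difference of 5.48 ± 0.13, and Ndc80 had 6.42, 6.12 and 6.40 in peak GC libraries, against 2.21, 2.79 and 2.51 in naive libraries, a difference of 3.81 ± 0.11. Cenpa, the gene of the centromeric histone, was already well above the lower limit in naive cells. It had 7.24, 7.21 and 7.50 in peak GC libraries, against 5.64, 5.64 and 5.48 in naive libraries, a difference of 1.73 ± 0.07 (adjusted p = 4.29e-16). Cenpt, which links CENP-A chromatin to NDC80, had 5.25, 5.43 and 5.12 in peak GC libraries, against 3.45, 3.51 and 3.64 in naive libraries, also a difference of 1.73 (SE 0.08).

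The chromosomal passenger complex, which corrects faulty attachments, was higher by a median of 4.32 over 4 of 4 genes. Its kinase gene Aurkb had 6.79, 6.68 and 6.98 in peak GC libraries, against 3.20, 3.27 and 3.44 in naive libraries, and its scaffold gene Incenp had 7.59, 7.43 and 7.71 in peak GC libraries, against 4.10, 4.13 and 4.27 in naive libraries. Birc5, the gene of survivin, showed the widest gap of the complex, with 7.22, 7.16 and 7.52 in peak GC libraries, against 1.91, 2.07 and 1.70 in naive libraries, a difference of 5.40 ± 0.12.

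Genes that control anaphase rose by a median of 4.98 (6 of 6). Ube2c had 7.09, 6.71 and 7.39 in peak GC libraries, against 1.64, 1.82 and 1.69 in naive libraries, a difference of 5.35 ± 0.15. Espl1 had 6.82, 6.52 and 6.84 in peak GC libraries, against 1.47, 1.47 and 1.41 in naive libraries, a difference of 5.27 ± 0.12. Pttg1, the gene of securin, showed the smallest difference of these 6, with 6.32, 6.14 and 6.44 in peak GC libraries, against 2.85, 2.91 and 2.51 in naive libraries, a difference of 3.55 ± 0.11. Midzone and cytokinesis genes were higher by a median of 4.71 (6 of 6), and among them Racgap1, a regulator of the contractile ring, had 8.22, 8.12 and 8.43 in peak GC libraries, against 4.03, 4.10 and 4.14 in naive libraries. Chromosome structure genes were higher by a median of 4.36 (7 of 7). Top2a had 10.18, 9.90 and 10.15 in peak GC libraries, against 4.83, 5.24 and 5.12 in naive libraries, and Mki67, a coat protein of mitotic chromosomes, had 10.35, 9.85 and 9.95 in peak GC libraries, against 4.93, 5.08 and 5.23 in naive libraries. Smc4, a condensin core subunit that also serves in interphase, had 8.80, 8.39 and 8.80 in peak GC libraries, against 5.94, 6.31 and 6.22 in naive libraries, a difference of 2.50 ± 0.10.

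In vivo activated B cells were also higher than naive cells for all 50 genes (39.2% of all genes tested higher, 40.1% lower), with a median of 4.38 and differences between 1.08 and 5.81. This comparison uses the same naive libraries as the one of peak GC cells. All 50 were at least doubled, as were 16% of all genes tested, and the groups did not overlap for any of the 50, nor for 82.3% of all genes tested. The largest differences were those of Ube2c at 5.81 ± 0.15 (adjusted p = 3.84e-19), Bub1 at 5.69, Cdk1 at 5.66 ± 0.13 and Bub1b, the gene of BUBR1, at 5.55. The smallest were those of Cenpt at 1.08 ± 0.08 (adjusted p = 2.43e-11), Bub3 at 1.45, Cenpl, an inner kinetochore gene, at 1.52 and Plk4 at 1.59. Erythroid markers summed to 13.5 to 19.6 CPM in these in vivo activated libraries, against 89.4 to 99.9 CPM in naive libraries, and neutrophil markers to 2.09 to 2.61 CPM, against 15.7 to 23.2 CPM.

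At 4 h after activation in vitro most of these genes had moved down. Of the 50, 28 were lower and 11 higher in 4 h cells than in naive cells, with a median of −0.41, while 39.1% of all genes tested were lower and 38.9% higher. Mki67 had 2.46, 2.46 and 2.53 in 4 h libraries, against 4.93, 5.08 and 5.23 in naive libraries, a difference of −2.59 ± 0.11 (adjusted p = 1.58e-15). Nusap1, a spindle microtubule bundler, fell by 1.98, Ube2c by 1.92 and Ccna2 by 1.86. Ube2c had −0.07, −0.18 and −0.37 in 4 h libraries, against 1.64, 1.82 and 1.69 in naive libraries, and Ccna2 had 1.003, 1.02 and 0.85 in 4 h libraries, against 2.73, 2.76 and 2.95 in naive libraries. In all, 15 genes fell at least 2-fold, as did 17.7% of all genes tested. Of the kinase and cyclin genes 5 of 7 were lower, and of the spindle and midzone genes 5 of 6, with none of either group higher at an unadjusted p under 0.05 by limma.

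Of the 11 genes higher at 4 h, 6 were among the 9 inner kinetochore genes. Cenpm had 1.59, 1.62 and 1.35 in 4 h libraries, against 0.20, 0.72 and 0.12 in naive libraries, a difference of 1.17 ± 0.13 (adjusted p = 1.85e-08), the only rise of at least 2-fold, where 16% of all genes tested rose that far. Cenpk was higher by 0.89 ± 0.21, Bub3 by 0.79 ± 0.07 and Cenpt by 0.78 ± 0.08. Bub3 had 6.65, 6.78 and 6.71 in 4 h libraries, against 5.96, 5.94 and 5.90 in naive libraries. Cenpt had 4.32, 4.33 and 4.28 in 4 h libraries, against 3.45, 3.51 and 3.64 in naive libraries. Markers of other cells fell as well. The erythroid markers summed to 5.09 to 9.18 CPM in 4 h libraries, against 89.4 to 99.9 CPM in naive libraries, with all 4 genes tested lower. The 6 T-cell markers summed to 50.3 to 53.7 CPM in 4 h libraries, against 338.6 to 387.0 CPM in naive libraries, and all 4 tested were lower. Nearly all of that sum was Cd2, which mouse B cells also express (5.64 in 4 h cells and 8.44 in naive cells), while Cd3d, Cd3e and Cd3g averaged −1.06, −1.20 and −0.10 in 4 h cells and 0.24, 0.47 and 1.67 in naive cells. Plasma cell markers summed to 153.8 to 165.6 CPM in 4 h libraries, against 369.1 to 409.3 CPM in naive libraries. Of these, Igj, Prdm1 and Sdc1 were lower (−2.62, −1.88 and −0.64) and Xbp1 was not called (0.14). The part of other cells in the differences was not tested. Without naive replicate 1, or without 4 h replicate 1, 7 genes were called higher in place of 11.

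At 12 h the set held calls in both directions. Of the 50, 24 were higher and 14 lower in 12 h cells than in naive cells (41.7% of all genes tested higher, 39.2% lower), with a median of 0.17. The count higher thus lies near the share of all genes tested, and the count lower lies under it. All 5 spindle checkpoint genes and 6 of 9 inner kinetochore genes were higher. Among the 6 spindle and midzone genes 1 was higher and 4 were lower. Cenpm had 2.95, 2.75 and 2.89 in 12 h libraries, against 0.20, 0.72 and 0.12 in naive libraries, a difference of 2.52 ± 0.13 (adjusted p = 1.4e-14). Cenpk was higher by 2.31 ± 0.21, Cenpi by 1.35 ± 0.20 and Bub3 by 1.30, all but Bub3 being inner kinetochore genes. The largest fall was that of Ccnb2, the gene of cyclin B2, with 0.23, −0.05 and −0.28 in 12 h libraries, against 2.29, 2.30 and 2.58 in naive libraries, a difference of −2.43 ± 0.11 (adjusted p = 5.75e-16). Mki67 fell by 2.30, Nusap1 by 1.92 and Ube2c by 1.21.

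Ndc80 and Plk4 were called at neither of these times and were higher at 24 h. Ndc80 had 2.21, 2.79 and 2.51 in naive libraries, 2.66, 2.49 and 2.37 at 4 h (adjusted p = 0.992 against naive cells), 2.61, 2.40 and 2.58 at 12 h (adjusted p = 0.832) and 5.72, 5.68 and 5.88 at 24 h (3.26 ± 0.11 above naive cells, adjusted p = 7.34e-18). Plk4 had 4.30, 4.55 and 4.34 in naive libraries, 4.35, 4.37 and 4.496 at 4 h, 4.28, 4.35 and 4.24 at 12 h and 6.18, 6.13 and 5.99 at 24 h (1.71 ± 0.10 above naive cells). Espl1 was lower at 4 h and back near its naive level at 12 h, with 1.47, 1.47 and 1.41 in naive libraries, 0.41, 0.64 and 0.36 at 4 h, 1.27, 1.54 and 1.40 at 12 h and 5.92, 5.99 and 6.10 at 24 h.

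Between 4 h and 12 h, 33 of the 50 genes were higher at 12 h and 5 were lower, against 34.6% and 27.2% of all genes tested, with a median of 0.59. Cdk1 had 2.19, 2.17 and 2.23 in 12 h libraries, against −0.23, 0.08 and −0.31 in 4 h libraries, a difference of 2.35 ± 0.13 (adjusted p = 1.29e-12). Bub1 was higher by 2.14, Sgol1, which guards centromeric cohesion, by 2.11, and Bub1b by 1.96. The 5 lower genes were Birc5 (−0.78 ± 0.11), Ccnb2 (−0.67), Pttg1 (−0.57), Cenpa (−0.53) and Cenpl (−0.46). Birc5 had 1.03, 0.65 and 0.96 in 12 h libraries, against 1.76, 1.68 and 1.54 in 4 h libraries.

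From 12 h to 24 h nearly the whole set rose. At 24 h, 48 of the 50 genes were higher than at 12 h and none was lower, where 22.5% of all genes tested were higher and 34.8% lower. The median difference was 3.36, against −0.10 over all genes tested, and 47 genes were at least doubled, as were 7% of all genes tested. No gene of the 50 was lower at an unadjusted p under 0.05 by limma either, and leaving out 24 h replicate 3 gave 1 lower call, that of Cenpt. Ccna2 had 7.63, 7.67 and 7.66 in 24 h libraries, against 1.85, 2.01 and 2.07 in 12 h libraries, a difference of 5.68 ± 0.10 (adjusted p = 1.16e-22). Mki67 was higher by 5.62, Nusap1 by 5.58 and Birc5 by 5.31. The genes not called were Cenpt, with 3.99, 3.90 and 4.22 in 24 h libraries, against 4.25, 4.16 and 4.18 in 12 h libraries (−0.16, 95% interval −0.33 to 0.01, adjusted p = 0.104), and Bub3, with 7.29, 7.42 and 7.43 in 24 h libraries, against 7.20, 7.24 and 7.24 in 12 h libraries (0.15, 95% interval −0.0037 to 0.30, adjusted p = 0.088). Both had risen already by 4 h.

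**Figure D3:**
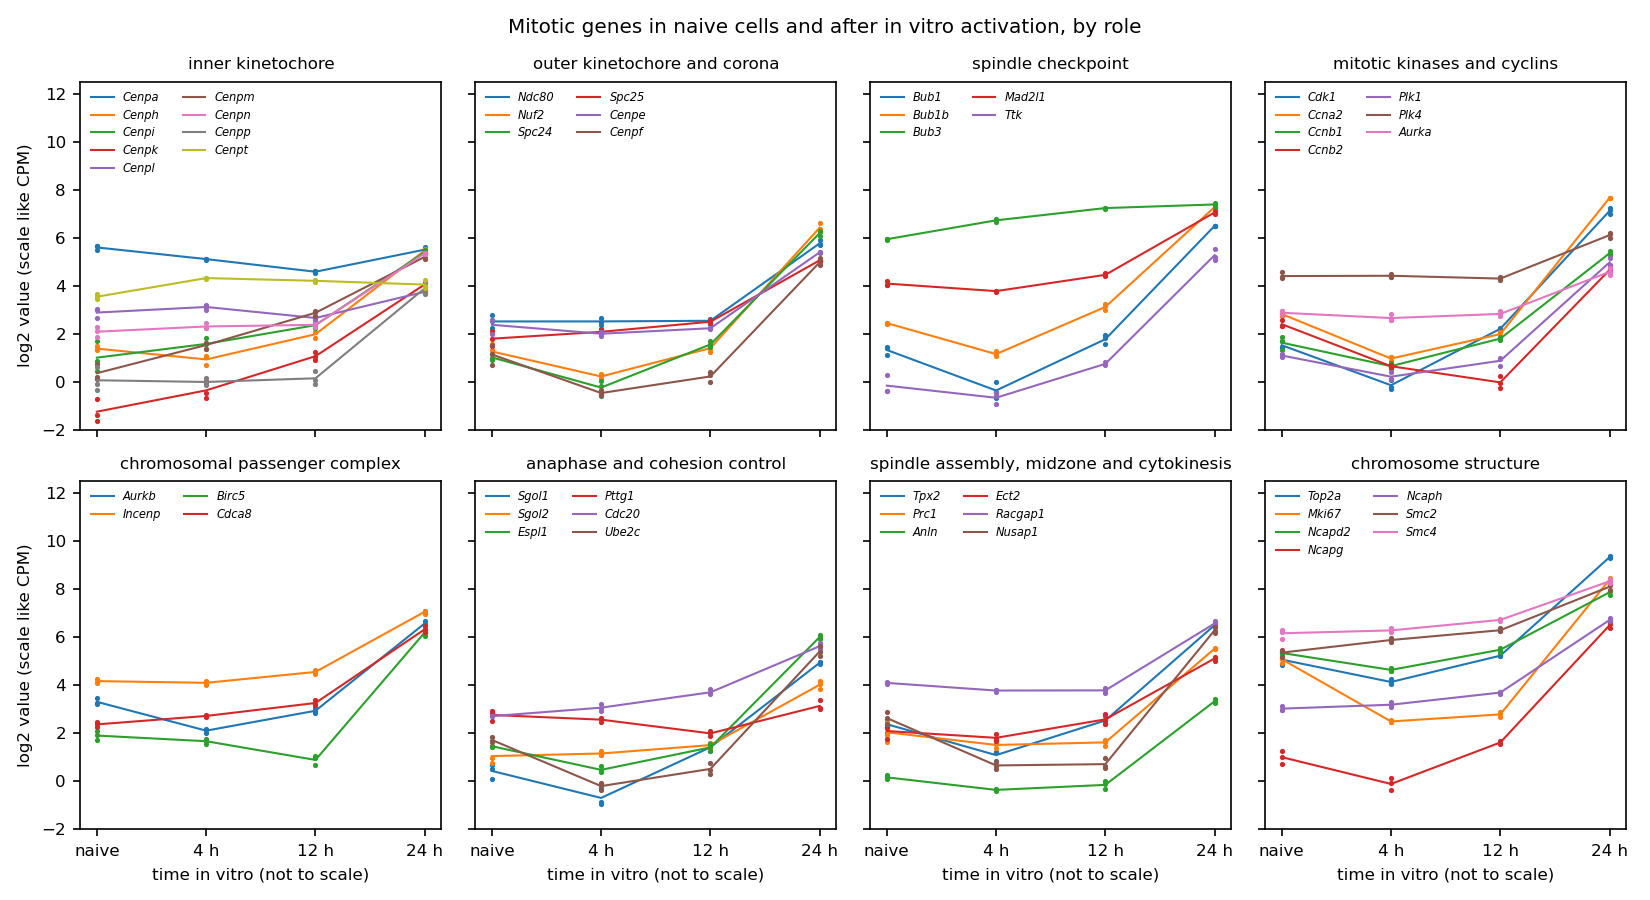
Log2 value (scale like CPM) of the 50 genes in naive cells and at 4 h, 12 h and 24 h of in vitro activation, in a panel for each role, with points for libraries and lines through the group means. The median over the 50 genes in a library was 1.996 to 2.482 in naive cells, 1.56 to 1.76 at 4 h, 2.30 to 2.37 at 12 h and 5.62 to 5.82 at 24 h.

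Set against naive cells, 49 of the 50 genes were higher at 24 h (42.2% of all genes tested higher, 42.5% lower), with a median of 3.57, and 46 were at least doubled, as were 22.8% of all genes tested. Cdk1 had 6.98, 7.13 and 7.22 in 24 h libraries, against 1.39, 1.45 and 1.70 in naive libraries, a difference of 5.60 ± 0.13 (adjusted p = 1.65e-20). Ncapg, a condensin subunit gene, was higher by 5.495 ± 0.15, Ttk by 5.43 and Cenpk by 5.30. Cenpa was the exception. It had 5.41, 5.47 and 5.61 in 24 h libraries, against 5.64, 5.64 and 5.48 in naive libraries, a difference of −0.09 ± 0.07 (95% interval −0.24 to 0.06, adjusted p = 0.244), after 5.07, 5.13 and 5.11 at 4 h and 4.61, 4.59 and 4.52 at 12 h. Pttg1 was barely higher, with 2.98, 3.04 and 3.37 in 24 h libraries, against 2.85, 2.91 and 2.51 in naive libraries (0.37 ± 0.11, adjusted p = 0.00295). Cenpt, higher by 0.51, and Cenpl, higher by 0.87, came next.

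In vivo activated cells and 24 h cells both had high levels of these genes, and the median difference between them varied with the role of the genes. Of the 50, 35 were higher and 2 lower in in vivo activated cells than in 24 h cells, against 33.6% and 36.3% of all genes tested, with a median of 0.55. All 6 spindle and midzone genes and all 4 passenger complex genes were higher, with medians of 1.20 and 0.56, as were 5 of 6 anaphase genes (median 1.11) and 5 of 7 kinases and cyclins (median 1.12). Inner kinetochore genes were higher in 5 of 9 and lower in 1, with a median of 0.23, and chromosome structure genes in 4 of 7 and lower in 1, with a median of 0.18. At least 2-fold differences were found for 15 genes, all higher in in vivo activated cells, where 11% of all genes tested were at least 2-fold higher and 9.15% at least 2-fold lower. Markers of other cells differed in both directions. Plasma cell markers summed to 351.1 to 402.2 CPM in in vivo activated libraries, against 100.6 to 103.2 CPM in 24 h libraries, with Prdm1 higher by 4.65, Igj by 3.96 and Xbp1 by 1.13, and Sdc1 not called (−0.63). Erythroid markers summed to 13.5 to 19.6 CPM in in vivo activated libraries, against 0.995 to 1.59 CPM in 24 h libraries, with all 4 genes tested higher. Neutrophil markers summed to 2.09 to 2.61 CPM in in vivo activated libraries, against 5.56 to 8.81 CPM in 24 h libraries. Of these, S100a8 and S100a9 were lower in in vivo activated cells and Mpo was higher. The part of such cells in the differences was not tested.

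Ccnb2 differed the most. It had 7.24, 7.43 and 7.44 in in vivo activated libraries, against 4.56, 4.66 and 4.73 in 24 h libraries, a difference of 2.72 ± 0.11 (adjusted p = 5.95e-16). Pttg1 had 5.69, 5.60 and 5.67 in in vivo activated libraries, against 2.98, 3.04 and 3.37 in 24 h libraries, a difference of 2.52 ± 0.11 (adjusted p = 3.62e-15). Ube2c had 7.37, 7.55 and 7.67 in in vivo activated libraries, against 5.23, 5.36 and 5.61 in 24 h libraries, a difference of 2.13 ± 0.15 (adjusted p = 5.27e-11). These are cyclin B2, securin and the E2 enzyme of the ligase that destroys them. Cenpa had 7.37, 7.46 and 7.43 in in vivo activated libraries, against 5.41, 5.47 and 5.61 in 24 h libraries, a difference of 1.93 ± 0.07 (adjusted p = 4.42e-16). Plk1 had 6.48, 6.56 and 6.66 in in vivo activated libraries, against 4.86, 4.88 and 5.16 in 24 h libraries, and Ccnb1 had 6.75, 6.78 and 6.69 in in vivo activated libraries, against 5.32, 5.28 and 5.44 in 24 h libraries, with differences of 1.599 ± 0.16 and 1.39 ± 0.17. No library of one group overlapped the other for these 6 genes, nor for 75.8% of all genes tested.

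For 13 genes no difference was called in the same libraries, Cdk1 and Smc4 among them. Cdk1 had 7.17, 7.19 and 7.16 in in vivo activated libraries, against 6.98, 7.13 and 7.22 in 24 h libraries (0.06, 95% interval −0.21 to 0.34, adjusted p = 0.688). Smc4 had 8.35, 8.43 and 8.34 in in vivo activated libraries, against 8.40, 8.27 and 8.31 in 24 h libraries (0.05, 95% interval −0.15 to 0.25). The lower genes were Ncapg, with 5.67, 5.81 and 5.67 in in vivo activated libraries, against 6.59, 6.36 and 6.53 in 24 h libraries (−0.78 ± 0.15, adjusted p = 0.000105), and Cenpm, with 4.91, 4.69 and 4.92 in in vivo activated libraries, against 5.15, 5.09 and 5.34 in 24 h libraries (−0.35 ± 0.13, adjusted p = 0.0184). Without in vivo activated replicate 2, Ncapg was the 1 gene called lower.

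S phase genes, which copy the DNA before mitosis, went the other way in these groups. Of 30, 27 were lower in in vivo activated cells than in 24 h cells and 1 was higher, against 36.3% and 33.6% of all genes tested, with a median of −0.45. Mcm6, a subunit of the replicative helicase, averaged 9.12 ± 0.08 in in vivo activated cells and 10.07 ± 0.02 in 24 h cells (SD, n = 3 each), a difference of −0.94 ± 0.05 (adjusted p = 4.41e-14). Pcna, the sliding clamp of the replication fork, averaged 9.15 ± 0.06 in in vivo activated cells and 10.17 ± 0.01 in 24 h cells (SD, n = 3 each), a difference of −1.01 ± 0.06. Rrm2, a subunit of ribonucleotide reductase, was the gene that was higher, by 0.32 ± 0.08. Set against naive cells, 29 of these 30 genes were higher in 24 h cells (42.2% of all genes tested) and 29 in in vivo activated cells (39.2%), with medians of 3.21 and 2.69.

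**Figure D4:**
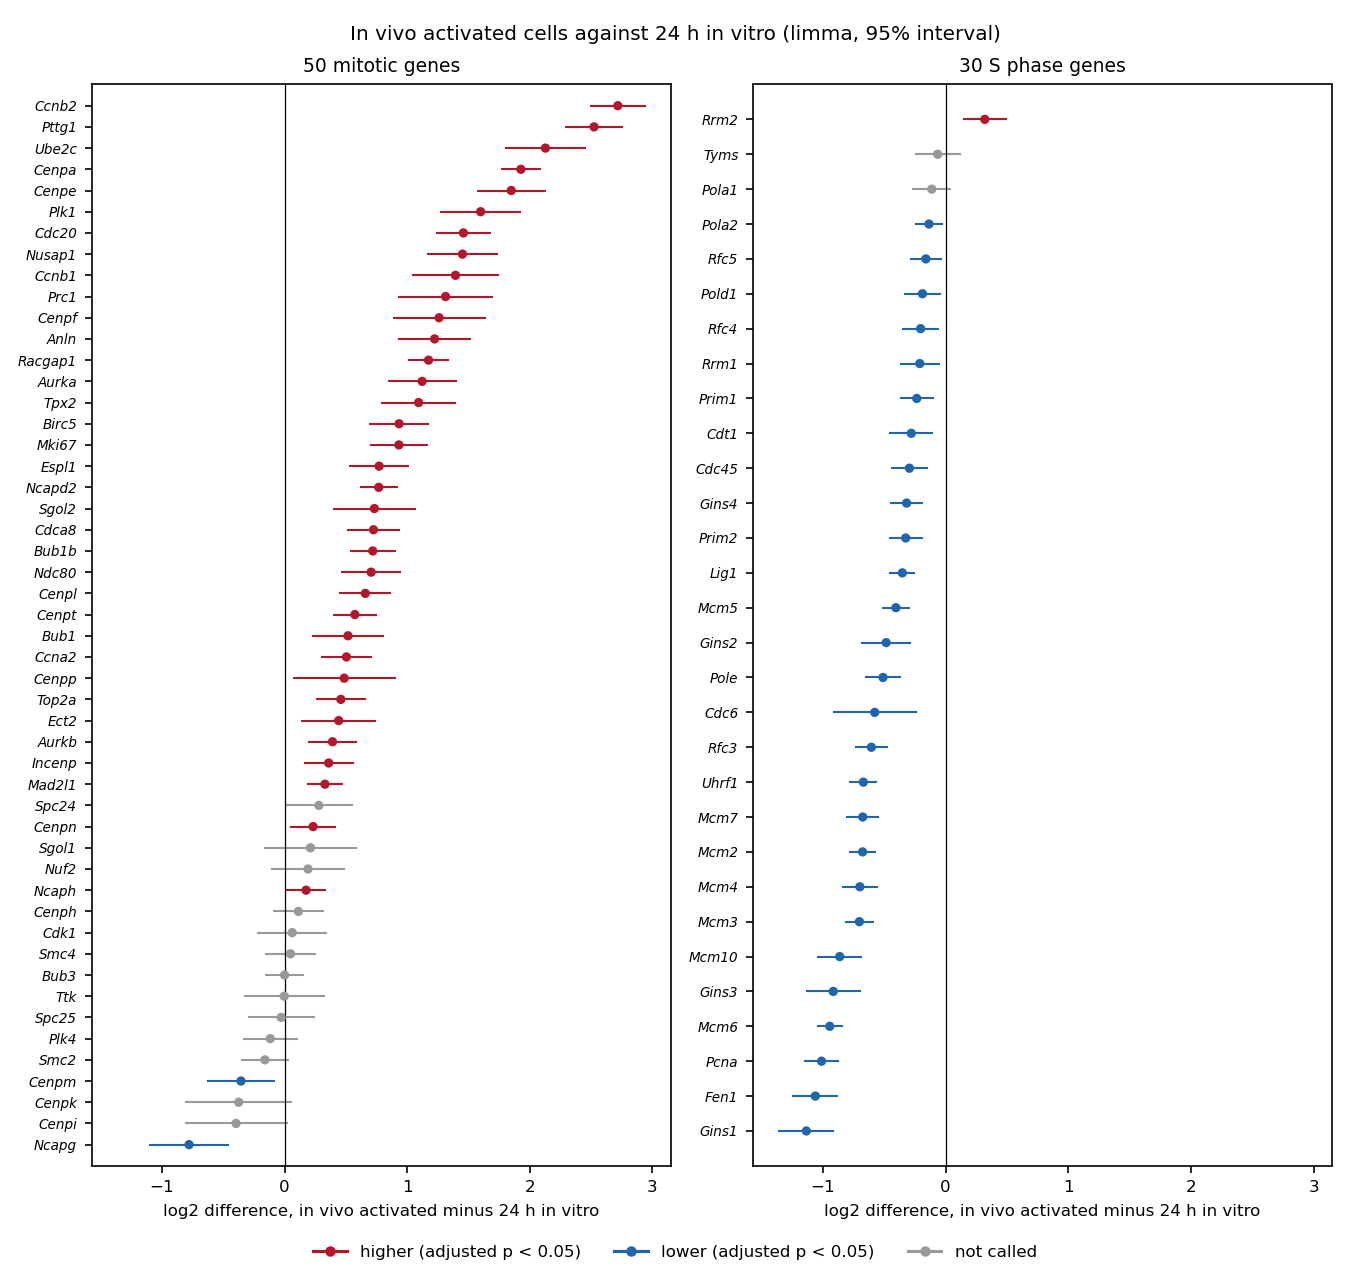
Log2 difference, in vivo activated minus 24 h in vitro activated cells, with its 95% interval from limma, for the 50 mitotic genes in the left panel and 30 S phase genes in the right panel, ordered by size and coloured by the call. Ccnb2, Pttg1 and Ube2c lie farthest to the right at 2.72, 2.52 and 2.13, and Ncapg and Cenpm are the mitotic genes called lower, while 27 S phase genes lie to the left.

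GC B cells and in vivo activated cells differed by less than 2-fold for every one of the 50 genes in the early and peak stages, where 11.4% and 11.8% of all genes tested were at least 2-fold higher and the same shares at least 2-fold lower. In peak GC cells 19 were higher and 3 lower than in in vivo activated cells, with a median of 0.15. Of all genes tested 34.1% were higher and 35% lower. The count higher thus lies near the share of all genes, and the count lower lies under it. Mki67 had 10.35, 9.85 and 9.95 in peak GC libraries, against 9.22, 9.43 and 9.33 in in vivo activated libraries, a difference of 0.72 ± 0.11 (adjusted p = 4.18e-06). Cenpt had 5.25, 5.43 and 5.12 in peak GC libraries, against 4.66, 4.56 and 4.62 in in vivo activated libraries (0.65 ± 0.08). Pttg1 had 6.32, 6.14 and 6.44 in peak GC libraries, against 5.69, 5.60 and 5.67 in in vivo activated libraries (0.65 ± 0.11), and Sgol1 was higher by 0.59. The lower genes were Ube2c (−0.47 ± 0.15, adjusted p = 0.0103), Cenph, an inner kinetochore gene (−0.41), and Aurka, the Aurora kinase of the spindle poles (−0.36, adjusted p = 0.0184). Without peak GC replicate 3, 11 genes were called higher and 5 lower, and without peak GC replicate 2, Cenph was the 1 gene called lower.

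Early GC cells gave 15 genes higher and 6 lower than in vivo activated cells (33.2% and 36.4% of all genes tested), with a median of 0.06, from the same in vivo activated libraries. Here too the count higher lies near the share of all genes tested, and the count lower lies under it. Mki67 was higher by 0.67 ± 0.11 (adjusted p = 1.15e-05), Cenpt by 0.63, Ect2, which activates the contractile ring, by 0.59 and Pttg1 by 0.51. Ube2c was lower with a difference of −0.51 ± 0.15 (adjusted p = 0.00531), as were Cenph at −0.51, Prc1, a midzone bundler, at −0.47 (adjusted p = 0.0255) and Aurka at −0.46. Leaving out early GC replicate 3 gave 2 genes lower, and leaving out in vivo activated replicate 1 or replicate 2 gave 3. Beside these differences, erythroid markers summed to 170.1 to 736.1 CPM in early and peak GC libraries, against 13.5 to 19.6 CPM in in vivo activated libraries, with all 4 genes tested higher in both stages. In the same libraries macrophage and monocyte markers summed to 106.0 to 295.8 CPM, against 27.3 to 33.8 CPM. Neutrophil markers had 18.6 to 105.6 CPM, against 2.09 to 2.61 CPM, and natural killer cell markers 18.9 to 28.8 CPM, against 1.5 to 2.4 CPM. T-cell markers overlapped, with 72.0 to 140.6 CPM against 96.2 to 124.1 CPM. Plasma cell markers summed to 970.9 to 1351 CPM in early and peak GC libraries, against 351.1 to 402.2 CPM in in vivo activated libraries, but of the 4 genes Igj alone was higher, by 2.33 in early GC and 2.66 in peak GC cells. Prdm1 and Sdc1, which define plasma cells, were lower, with differences of −1.15 and −1.44 in early GC and −1.71 and −1.95 in peak GC cells, and Xbp1 differed by −0.45 in early GC cells, where it was called lower, and by −0.22 in peak GC cells, where it was not. Red cell precursors can divide, and neither their part in these differences nor that of other cells was tested.

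Across the GC stages the set gave no call between early and peak GC cells and some lower calls in late GC cells. None of the 50 genes was called between peak and early GC cells by limma, where 5.77% of all genes tested were higher and 7.42% lower, and none reached an unadjusted p under 0.05. The log2 differences ran between −0.09 and 0.29 with a median of 0.07, and the groups overlapped for every gene, while they did not for 24.1% of all genes tested. The count was also 0 under each other setting of the fit. Cdk1, for example, had 7.01, 6.72 and 7.21 in peak GC libraries, against 6.99, 7.06 and 6.51 in early GC libraries, and Cenpa had 7.24, 7.21 and 7.50 in peak GC libraries, against 7.51, 7.33 and 7.27 in early GC libraries. Mki67 had 10.35, 9.85 and 9.95 in peak GC libraries, against 10.02, 10.16 and 9.81 in early GC libraries, and Aurkb had 6.79, 6.68 and 6.98 in peak GC libraries, against 6.89, 6.86 and 6.55 in early GC libraries. Over the 50 genes the upper 95% limits of the differences reached at most 0.62 and the lower ones −0.49.

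Late GC cells had 12 genes lower than peak GC cells and none higher, against 20.6% and 12% of all genes tested. The count lower thus lies near the share of all genes. The median was −0.21 over the 50 genes and −0.07 over all genes. None of the 50 was higher at an unadjusted p under 0.05 by limma, and 15 were lower. The shares of all genes tested given here are at the adjusted p, so they are no baseline for these 2 counts. Cenpe, the gene of a kinetochore motor, had 7.40, 7.09 and 7.12 in late GC libraries, against 7.82, 7.31 and 7.78 in peak GC libraries, a difference of −0.43 ± 0.13 (adjusted p = 0.0158), and the groups overlapped. Plk1 had 6.27, 5.71 and 5.89 in late GC libraries, against 6.51, 6.12 and 6.52 in peak GC libraries, a difference of −0.43 ± 0.16 (adjusted p = 0.0394), also with overlap. Cenpt had 4.85, 4.90 and 4.80 in late GC libraries, against 5.25, 5.43 and 5.12 in peak GC libraries (−0.42 ± 0.08, adjusted p = 0.000521), and Incenp had 7.37, 7.08 and 7.12 in late GC libraries, against 7.59, 7.43 and 7.71 in peak GC libraries (−0.39 ± 0.09, adjusted p = 0.00381). The other lower genes were Cdc20, Aurkb, Bub1b, Bub3, Ncaph, Cenpn, Ncapd2 and Mad2l1, and none of the 12 fell 2-fold, as 2.8% of all genes tested did. Racgap1 was among the 38 genes not called, with 8.28, 8.13 and 8.12 in late GC libraries, against 8.22, 8.12 and 8.43 in peak GC libraries.

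The count in late GC cells moved with single libraries. It was 20 without peak GC replicate 2, 5 without peak GC replicate 1, 3 without peak GC replicate 3, 7 without late GC replicate 2 and 5 without late GC replicate 3. With late and peak GC libraries alone in the fit it was 2, and of all genes tested 500 were then lower and 707 higher in late GC cells, in place of 2446 and 1431. Against early GC cells, 5 genes were lower in late GC cells (22.1% of all genes tested) and none was higher (13%), also at an unadjusted p under 0.05 by limma. These were Cenpe and Cenpt (both −0.40), Aurkb (−0.29), Ncapd2 (−0.28) and Bub1b (−0.24). That count was 12 without early GC replicate 3, 8 without late GC replicate 1, and 2 without early GC replicate 1 or 2 or late GC replicate 2 or 3. Late GC cells also had the highest median sums of erythroid, macrophage and neutrophil markers, and the part of these in the falls was not tested.

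**Figure D5:**
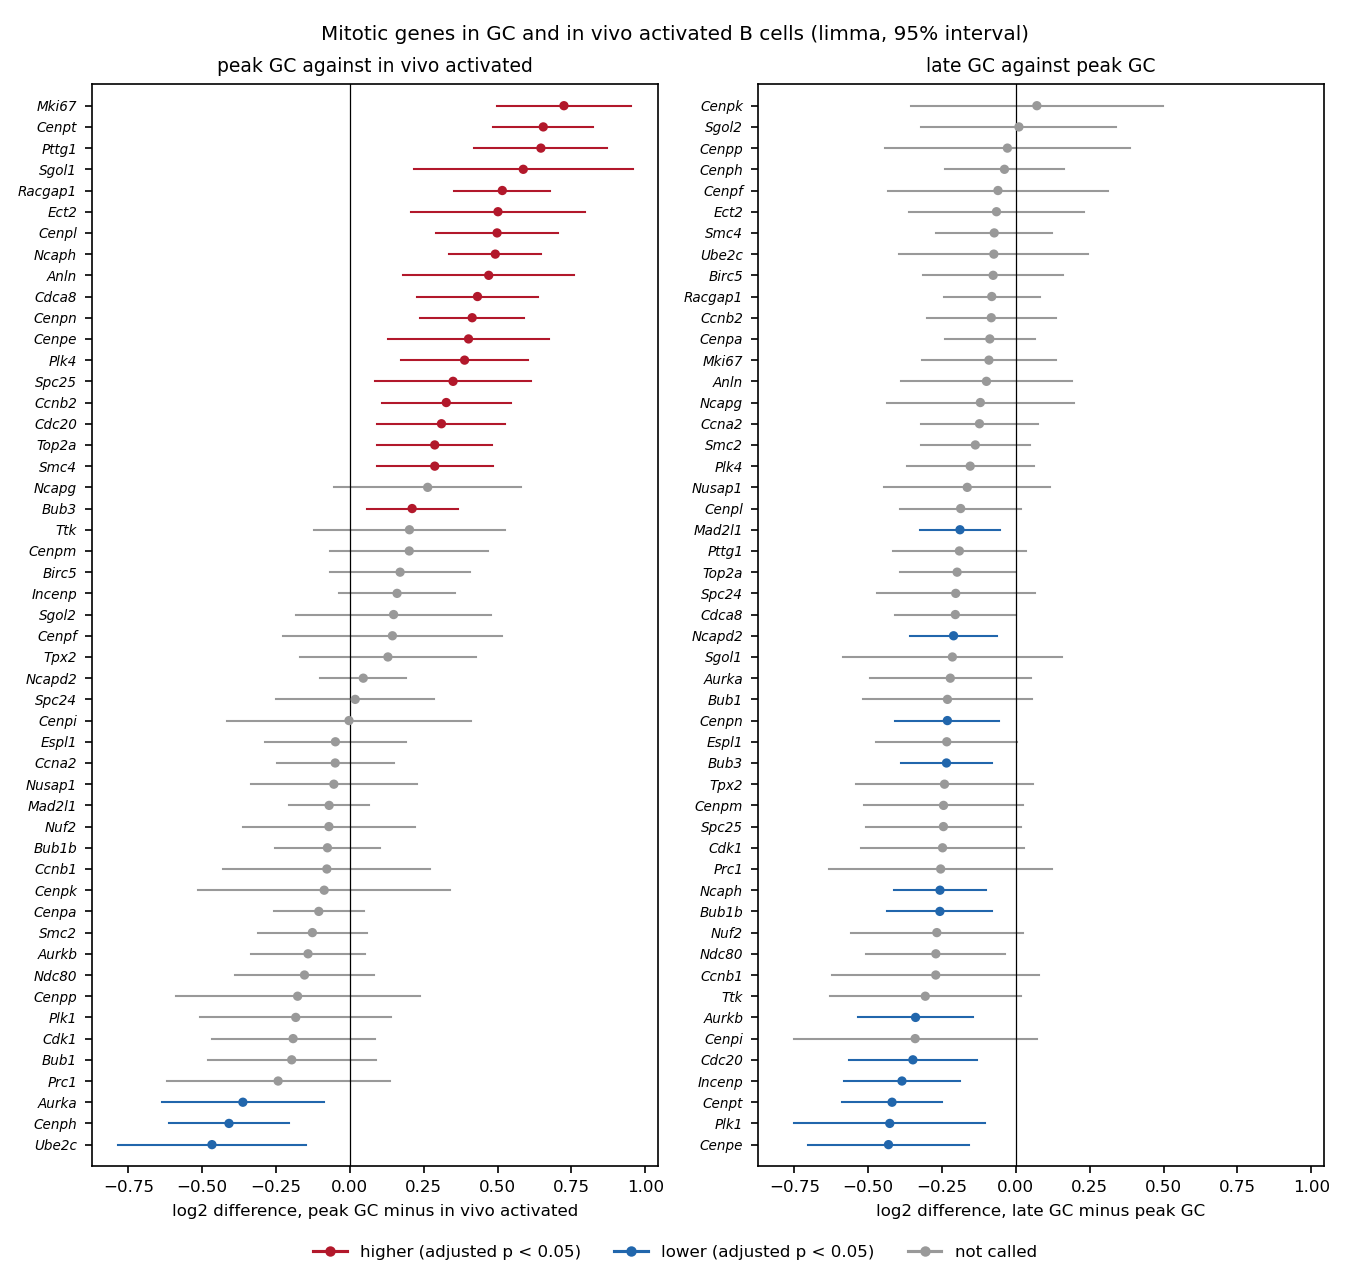
Log2 difference with its 95% interval from limma for the 50 genes, peak GC minus in vivo activated cells in the left panel and late GC minus peak GC cells in the right panel, coloured by the call. All differences are under 1 in size, with 19 genes higher and 3 lower in the left panel and 12 lower in the right panel.

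Other genes of the same machinery, listed apart from the 50, were also mostly higher in peak GC cells than in naive cells, with smaller median differences. Of 26 other kinetochore and checkpoint genes tested 25 were higher, with a median of 2.07 beside 4.69 for the 50 (40.5% of all genes tested were higher and 39.3% lower, which holds beside each list of this comparison). Kntc1, a subunit of the ROD-ZW10 complex at the kinetochore, averaged 6.24 ± 0.06 in peak GC cells and 1.09 ± 0.17 in naive cells (SD, n = 3 each), and Ska3, of the SKA complex on spindle microtubules, 5.14 ± 0.19 in peak GC cells and 0.38 ± 0.22 in naive cells. Mad2l1bp was the gene not called. Of 15 other mitotic kinases and CDK regulators 13 were higher and 2 lower, Plk2 (−2.48 ± 0.20) and Plk3 (−1.93 ± 0.11), Polo-like kinases known for roles in stress responses. Nek2, a centrosome kinase, was higher by 5.05 ± 0.12 and Cks1b, a partner of CDK1, by 4.38 ± 0.09. Subunits and regulators of the anaphase-promoting complex were higher in 16 of 17 with a median of 0.81, among them Anapc7 (1.19 ± 0.05) and the gene of an inhibitor, Fbxo5 (3.50 ± 0.14). Of 10 cohesin genes 7 were higher and 1, the loader gene Nipbl, was lower (−0.73 ± 0.11), with Cdca5, the gene of sororin, higher by 5.12 ± 0.11. All 3 condensin II genes were higher, with a median of 2.05.

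Between in vivo activated and 24 h cells these lists gave calls in both directions. Of the 26 other kinetochore and checkpoint genes 6 were higher and 11 lower in in vivo activated cells, with a median of −0.23. Of all genes tested 33.6% were higher and 36.3% lower, so the count lower lies near that share. Hjurp, the chaperone that loads CENP-A, averaged 3.53 ± 0.06 in in vivo activated cells and 2.71 ± 0.13 in 24 h cells (SD, n = 3 each), higher by 0.83 ± 0.11. Zwint, a kinetochore scaffold gene, was lower with a difference of −0.73 ± 0.07. Cdc25b, the phosphatase that activates CDK1 in G2, was higher by 1.58 ± 0.06 and Wee1, the kinase that restrains CDK1, was lower with a difference of −0.86 ± 0.13. Rad21, the cohesin subunit cut by separase, was higher by 0.71 ± 0.09. Of the condensin II genes, Ncapg2 was lower with a difference of −0.68 ± 0.12, Ncaph2 was higher by 0.17 ± 0.05 and Ncapd3 was not called.

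The responses were also set beside the promoter matches. The median difference between peak GC and naive cells was 4.86 over the 29 genes with a CHR match and 4.14 over the 15 genes with a window and no match. Between in vivo activated and 24 h cells the medians were 0.72 with a match and 0.49 without, and between 24 h and naive cells 3.32 with a match and 3.69 without. Without the 8 genes whose windows lay inside the gene, and counting the windows within 100 bases of the outermost start, the medians were 4.98 over 24 genes with a match and 4.60 over 12 without between peak GC and naive cells, 0.72 and 0.26 between in vivo activated and 24 h cells, and 3.40 and 3.71 between 24 h and naive cells. These are descriptions with no test, and in the first set the ranges overlapped: among genes with a match the difference between peak GC and naive cells ran from 1.66 to 5.63, and among genes without one from 1.73 to 5.40.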

How the data were processed

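RNA of 24 libraries in 8 groups of 3 was sequenced as paired reads of stranded libraries, per the labels' protocols. The genome was mm10 and the tools were STAR 2.6.0c, cutadapt 1.8.3, FastQC 0.11.5, featureCounts, limma and Subread 1.6.2, per the submitters' processing notes; how reads were counted and what limma was used for are not given in the sources used here. The authors deposited log2 values whose powers of 2 sum to 990678 to 1008194 per library, so they lie on a scale like CPM. Libraries share nearly one distribution (the values of the gene ranked 1000 in each library span 0.03 log2), and the mean of a gene over each replicate number is equal within 0.0009 log2, so a difference between replicate numbers appears to have been taken out before deposit. Values under -5 log2 are called the lower limit. Depth is unknown for all libraries, and no detection limit was computed.

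Genes at 0 log2 (1 CPM) or more in at least 3 libraries were tested (11885) with limma 3.58.1 in R 4.3.3, one mean per group over all 24 libraries, 16 residual degrees of freedom and empirical Bayes moderation (robust, with a trend), two-sided, with Benjamini-Hochberg adjustment over all genes tested and a threshold of 0.05. The 13 comparisons share groups, so they are not independent. Counts at an unadjusted p under 0.05 are given without the share of all genes tested at that threshold. The fit was tested on simulated data. Other settings tried were no filter, a pseudocount of 1 CPM, a replicate block, the 2 groups compared only, no trend or robust moderation, median centring and leaving out each library. Named genes are a fixed set of 22, the up to 4 called genes with the largest rise and fall per comparison, exceptions of at most 5, and up to 2 genes per direction by p of each other list. Ccnb2, Cenpm and Ncapg are described further as the leading or lower genes of a comparison. The members and lists were chosen with earlier results of these data known. Symbols were matched to RefSeq (50 of 50, 2 by a synonym), and promoter sequences and starts are RefSeq's on GRCm38.p6. The count limited to windows within 100 bases of the outermost start was added after seeing the data. Reads that near-identical copies or overlapping genes share could be split by the counting. Figures were drawn with matplotlib 3.10.9 and tables made with Python 3.11.15, numpy 2.4.6 and pandas 2.3.3. One marker gene of the label check is not reported here.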

Additional observations from a re-analysis of the deposited data

How the results depend on the processing

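Of 409 calls of the 50 genes none reversed direction under any setting, and 53 were lost under at least 1 of them. Of the 53, 0 were in peak GC, in vivo activated or 24 h cells against naive cells or in 24 h against 12 h cells. The direction of genes called neither in the main fit nor under a setting was not compared. Counts moved by over 1.5 times as follows. With only the 2 groups compared in the fit, 7 genes were higher at 4 h than in naive cells (11 otherwise), 2 lower in late than in peak GC cells (12), 3 lower in late than in early GC cells (5) and 5 lower in in vivo activated than in 24 h cells (2). With no filter on low values, 3 were lower in early GC than in in vivo activated cells (6), 5 in late than in peak GC cells (12), 2 in late than in early GC cells (5) and 1 in in vivo activated than in 24 h cells (2). A pseudocount of 1 CPM gave 4 in this last comparison.

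Leaving out 1 library at a time gave 2 to 9 genes lower in early GC than in in vivo activated cells, 2 to 12 in late than in early GC, 3 to 20 in late than in peak GC, 1 to 5 lower and 11 to 20 higher in peak GC than in in vivo activated cells, 1 to 2 lower in in vivo activated than in 24 h cells, 7 to 12 higher at 4 h than in naive cells, and 0 to 1 lower at 24 h than at 12 h. Where a group was left with 2 libraries, the fit pooled the spread over all groups.

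Replicate numbers occur in every group, and the 39 same-numbered pairs correlated by −0.369 to 0.112 with 1 over 0.1. Because replicate numbers were already levelled in the deposited values, these correlations cannot show whether same-numbered libraries were paired. With the replicate block (14 residual degrees of freedom) the count was 9 lower in late than in peak GC cells, 5 in late than in early GC, 19 higher and 3 lower in peak GC than in in vivo activated cells, 50 higher in peak GC and in in vivo activated than in naive cells, and 9 higher and 28 lower at 4 h than in naive cells. The deposited values had replicate numbers already levelled, so 16 degrees of freedom may be too many. The causes of these shifts were not tested. Unknown depth limits what can be said of genes near 0 log2 in naive, 4 h and 12 h cells.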
